A study of Mus musculus with 24 samples.

Results

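The tumour response of MacB2 cells was set against the tumour response of MacA cells, gene by gene, in macrophages and monocytes sorted from mouse lung. The quantity was a difference of differences: MacB2-2wk minus MacB2-N, less MacA-2wk minus MacA-N, on values of log2(FPKM + 1), where FPKM is the fragment density of a transcript, scaled for its length and for library size. A positive difference means that a gene rose more, or fell less, in MacB2 than in MacA. The 4 titled groups held 12 of the 24 libraries of the series, 3 in each group.

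All groups came from male C57BL/6 mice aged 10 to 16 weeks with no transgene or knockout named in the labels. MacB2-2wk and MacA-2wk were sorted 2 weeks after 100000 Lewis lung carcinoma cells with luciferase, in Matrigel, were placed in the left lung lobe. MacB2-N and MacA-N were sorted from uninjected mice. MacB2 cells were gated as CD11b+, Ly6G-, CD64 intermediate and CD11c-, and MacA cells as SiglecF+ and CD11c+. Cells at 2 weeks came from the tumour-bearing left lobe alone and naive cells from all lobes, so each response also compared those tissues, which applied to both populations. Each library held cells pooled from 3 to 5 mice of 1 of 3 independent experiments. In such bulk samples more cells of a type and more RNA per cell cannot be told apart.

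SiglecF+ CD11c+ cells of the lung are known as alveolar macrophages, which live in the airspace, maintain themselves locally and clear surfactant with a strong lipid-handling programme. CD11b+ cells without SiglecF include interstitial macrophages and cells derived from blood monocytes, which are replaced from the circulation. Macrophages of these origins are known to hold different gene programmes in steady state, and tumour tissue is known to change macrophage genes of many pathways.

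Transcripts of the gate markers followed the labels. Siglecf, the alveolar marker, was at 1.76, 3.59 and 4.82 FPKM in MacB2-2wk and 0.0879, 1.30 and 1.44 in MacB2-N, against 142, 171 and 125 in MacA-2wk and 163, 303 and 228 in MacA-N. Itgam, which encodes CD11b, was above 190 FPKM in every MacB2 library and at 24.5, 10.3 and 17.2 FPKM in MacA-2wk and 1.58, 0.680 and 4.65 FPKM in MacA-N. Itgax, which encodes CD11c, was at 12.96, 9.35 and 11.2 FPKM in MacB2-2wk and 8.81, 5.54 and 7.65 in MacB2-N, against 168, 190.4 and 98.1 in MacA-2wk and 219, 227 and 196 in MacA-N. Fcgr1, which encodes CD64, was present in all 12 libraries, with a difference of responses of 0.03 (95% interval -0.45 to 0.52). The table gives Ly6g as 0 in each of the 24 libraries, which leaves the Ly6G- gate unchecked.

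The 12 libraries had 15599 to 18522 genes above 0 and a relative depth of 0.521 to 1, while absolute depth was unknown. Genes annotated as miRNA held 43.7% to 75.1% of summed FPKM. Protein-coding genes held 22.2%, 21.4% and 10.3% in MacA-2wk replicates 1, 2 and 3 and 24.6% to 27.5% in MacA-N. In MacB2-2wk they held 15.3% to 22.5% and in MacB2-N 17.9% to 21.2%. The part of this composition in the results was not tested beyond the scalings among the alternatives. Lane 1 carried every MacA library, whereas MacB2 replicates 1, 2 and 3 went on lanes 2, 3 and 7. Lane and population therefore cannot be told apart in levels, but an additive lane effect cancels in the difference of responses. MacA-2wk replicate 3 stood apart with a summed level of 503 FPKM over 16 fibroblast genes, against 62.2 and 66.5 FPKM in the other MacA-2wk libraries and 39.9, 74.0 and 77.6 FPKM in MacA-N. Over 17 endothelial genes the sum was 1516 FPKM in MacB2-2wk replicate 2, against 501 and 624 FPKM in the others of its group, and 1142 FPKM in MacB2-N replicate 3, against 387 and 406 FPKM. MacA-2wk replicate 3 was also the highest of its group in that list, at 607.5 FPKM against 229 and 209 FPKM. Over 17 lung epithelial genes the sum ran from 547 to 2597 FPKM in MacB2-2wk and from 3575 to 10667 FPKM in MacB2-N, against 369 to 1586 FPKM in MacA-2wk and 1186 to 6016 FPKM in MacA-N. The part of these transcripts in the results was not tested beyond leaving the libraries out.

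At 2 weeks most genes called in the response of 1 population were not called in the other. MacB2-2wk had 284 genes higher and 39 lower than MacB2-N (1.66% and 0.227% of 17156 genes tested, 1.88% in all), and MacA-2wk had 125 higher and 10 lower than MacA-N (0.729% and 0.0583%, 0.787% in all). A gene was called at an adjusted p under 0.05 with at least a 2-fold change, by limma with Benjamini-Hochberg adjustment. The 38 genes called in both responses were 11.8% of those called in MacB2, where 0.787% of all genes tested were called in MacA. They were 28.1% of those called in MacA, where 1.88% of all genes tested were called in MacB2. Among the 38, 0 had opposite signs. Across all genes tested the responses had a Pearson r of 0.134 and a Spearman rho of 0.127, a description over genes that are not independent, from libraries that the responses do not share. In the test of the difference itself, 38 genes were called (0.221% of 17156), 23 higher in MacB2 (0.134%) and 15 lower (0.0874%). At an unadjusted p under 0.05 there were 1692. These 38 genes and the 38 called in both responses shared 1 gene, C1qc.

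**Figure D1:**
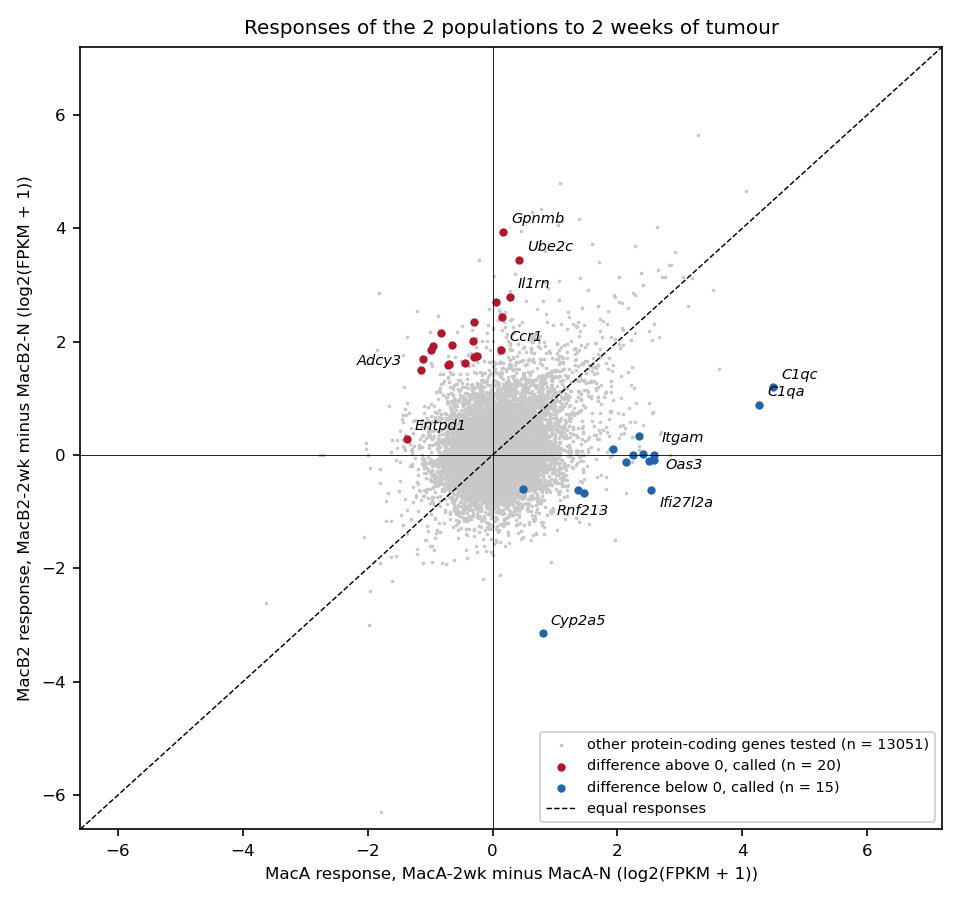
Response of MacB2 (vertical axis) against response of MacA (horizontal axis), both 2 weeks minus naive on the log2(FPKM + 1) scale, 1 point per protein-coding gene tested. Red points (20 genes) had a called difference above 0 and lie near or left of the vertical zero line, and blue points (15 genes) had one below 0 and, apart from C1qa, C1qc and Cyp2a5, lie near the horizontal zero line.

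Most called differences came with a called change in 1 population. Of the 23 genes higher in MacB2, 22 were called up in the MacB2 response and not in the MacA response, and the other, Entpd1, was called down in MacA. Of the 15 lower genes, 12 were called up in MacA alone, C1qc was called up in both, Cyp2a5 was called down in MacB2 alone, and Ptprj was called in neither response. The reverse did not hold: of 285 genes called in MacB2 and not in MacA the difference was called in 23, and of 97 called in MacA and not in MacB2 in 13. Missing a call in 1 population was thus mostly not shown to be a difference between populations. Nor did it mean no change. The MacA change was below 0 in 16 of the 23 higher genes, with a call in Entpd1 alone. The MacB2 change was below 0 in 9 of the 15 lower genes, with a call in Cyp2a5 alone. The median gene had a 95% interval of the difference of 1.02 either side of its value on the log2 scale, against 0.72 for the MacB2 response.

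How far the calls rested on single libraries varied. With each of the 12 libraries left out in turn, 11 of the 38 genes kept their call each time, among them Ube2c, Scimp, Adcy3, Actn1 and Entpd1 with a higher response in MacB2, and C1qa, C1qc, Ifi27l2a, Oas3 and Rnf213 with a lower one. Without MacA-2wk replicate 3 there were 29 calls, 19 of them among the 38, and without MacB2-N replicate 3 there were 29, 22 of them among the 38. With both left out there were 47 calls, 21 of them among the 38, and without MacB2-2wk replicate 2 there were 31, 24 of them among the 38. Over all 26 alternatives 1 of the 38 kept its call. Among settings that kept every library, each of the 10 genes named lost its call in at least 1. With only the 12 libraries in the fit the adjusted p was 0.0873 for Ube2c, 0.0899 for Scimp, 0.134 for Adcy3, 0.186 for Actn1, 0.167 for C1qa, 0.105 for C1qc, 0.113 for Ifi27l2a and 0.103 for Rnf213. On a square root scale it was 0.313 for Ube2c, 0.0973 for Scimp, 0.226 for Actn1, 0.0610 for Entpd1, 0.0909 for Ifi27l2a and 0.234 for Oas3. With a pseudocount of 5 it was 0.0586 for Scimp and 0.168 for Oas3. Chosen after these values were seen, these 10 genes and Arg1 are plotted by library. Genes of the lists given below without a called difference, such as Top2a, Mmp14, Irf7, Ccl5 and Ly6c2, were also chosen after their values were seen, apart from gate, C1q and Arg1 genes.

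**Figure D2:**
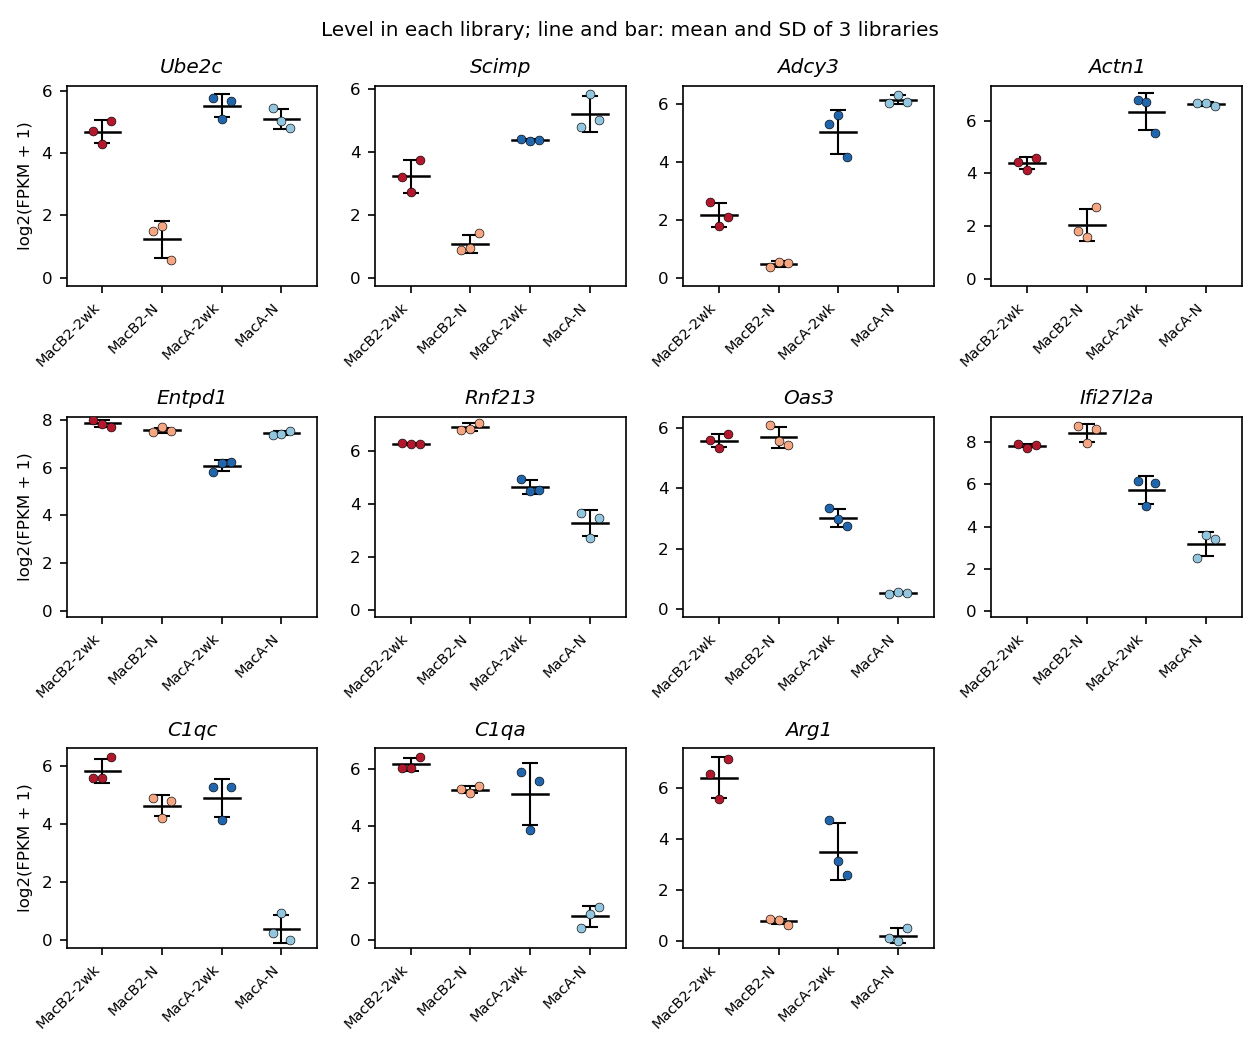
Level of 11 genes, as log2(FPKM + 1), in the 3 libraries of MacB2-2wk, MacB2-N, MacA-2wk and MacA-N. Points are libraries and the line and bar are the mean and SD. In Ube2c, Scimp, Adcy3 and Actn1 MacB2-2wk lies above MacB2-N and below MacA-2wk, in Rnf213, Oas3, Ifi27l2a, C1qc and C1qa MacA-2wk lies above MacA-N, and Arg1 lies higher at 2 weeks in both populations.

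The cell cycle gene Ube2c rose in MacB2 and already stood high in naive MacA. Ube2c, the ubiquitin-conjugating enzyme that works with the anaphase-promoting complex (chr2:164769898-164778822, GRCm38), was at 25.2, 18.7 and 31.6 FPKM in MacB2-2wk and 1.80, 2.13 and 0.480 in MacB2-N, against 53.7, 33.1 and 50.1 in MacA-2wk and 42.2, 31.3 and 27.05 in MacA-N. Every MacB2-2wk library lay above every MacB2-N library, and the MacA groups overlapped. The difference of responses was 3.02 ± 0.44 on the log2 scale (SE, 3 libraries per group, adjusted p = 0.00864), with a response of 3.45 in MacB2 and 0.43 in MacA. Rfc3, a subunit of the clamp loader of DNA replication, was at 11.2, 10.99 and 20.4 FPKM in MacB2-2wk and 5.60, 3.66 and 2.76 in MacB2-N, against 8.05, 11.7 and 7.70 in MacA-2wk and 15.9, 19.2 and 11.9 in MacA-N. MacB2-2wk lay wholly above MacB2-N, and MacA-2wk wholly below MacA-N. Its difference was 2.30 (adjusted p = 0.0308), and the call was lost without 7 of the 12 libraries (adjusted p 0.0544 to 0.0867 where lost).

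Of 30 mitosis genes tested, 8 rose in MacB2 and 0 in MacA, against 1.66% and 0.729% of all genes tested. The median response was 0.96 in MacB2 and 0.38 in MacA on the log2 scale, where all genes tested had medians of 0.03 and 0.05. The difference was called for 1 of the 30, Ube2c, against 0.221% of all genes tested. Its median over the list was 0.74, against 0 over all genes tested. Top2a, the topoisomerase that untangles chromosomes, was at 13.03, 14.5 and 13.02 FPKM in MacB2-2wk and 0.630, 3.31 and 2.64 in MacB2-N, against 46.5, 29.3 and 21.2 in MacA-2wk and 26.1, 24.6 and 18.2 in MacA-N. Top2a rose in MacB2 (2.30), while its difference of 1.88 was not called (adjusted p = 0.127). Birc5, the survivin gene, had a difference of 2.40 (adjusted p = 0.128) and Tpx2, a spindle assembly factor, of 2.36 (adjusted p = 0.127). Of 29 DNA replication genes tested, 3 rose in MacB2, 0 rose in MacA and 1, Rfc3, had a called difference. Over all genes tested these shares were 1.66%, 0.729% and 0.221%.

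Among 25 genes of extracellular matrix proteases and inhibitors, 11 rose in MacB2 and 3 in MacA (1.66% and 0.729% of all genes tested). The difference was called for 1 of the 25, above 0 (0.221% of all genes tested in either direction). The median response was 0.98 in MacB2 and 0.50 in MacA. Mmp14, a membrane-anchored collagenase, rose in both, by 3.14 in MacB2 and 2.76 in MacA, and its difference was 0.38 (95% interval -0.60 to 1.36). Mmp12, the macrophage elastase, rose by 4.03 in MacB2 and 2.63 in MacA, with a difference of 1.40 (95% interval -0.13 to 2.94). Mmp9, a gelatinase, rose in MacB2 (4.35) and had a difference of 3.57 that was not called (adjusted p = 0.204). Spp1, which encodes the secreted adhesion protein osteopontin, was at 109, 59.4 and 134 FPKM in MacB2-2wk and 2.50, 2.62 and 11.1 in MacB2-N, against 717, 313 and 299 in MacA-2wk and 155, 149 and 163 in MacA-N, and its difference of 2.80 was not called (adjusted p = 0.0836).

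The genes Actn1, Lmna and Myo1e also rose in MacB2. Actn1, which encodes an actin-crosslinking alpha-actinin (chr12:80167547-80260371), was at 20.6, 16.7 and 23.1 FPKM in MacB2-2wk and 2.51, 2.01 and 5.63 in MacB2-N, against 109, 102 and 45.3 in MacA-2wk and 100.2, 102 and 93.2 in MacA-N. MacB2-2wk lay wholly above MacB2-N, the MacA groups overlapped, and the difference was 2.64 ± 0.43 (SE, 3 libraries per group, adjusted p = 0.0117). Lmna, which encodes lamins A and C, was at 95.5, 75.4 and 139 FPKM in MacB2-2wk and 39.9, 25.7 and 31.1 in MacB2-N, against 327, 315 and 216 in MacA-2wk and 337, 374 and 437 in MacA-N. Its MacB2 groups did not overlap, all MacA-2wk libraries lay below MacA-N, and the difference was 2.06 (adjusted p = 0.0308). Myo1e, a class I myosin, was at 8.45, 5.02 and 7.04 FPKM in MacB2-2wk and 1.08, 0.916 and 2.00 in MacB2-N, against 23.6, 18.4 and 8.58 in MacA-2wk and 19.1, 19.5 and 17.3 in MacA-N. Its MacA groups overlapped and its MacB2 groups did not, for a difference of 2.00 (adjusted p = 0.0459). These calls were lost without 7 libraries for Lmna (adjusted p 0.0544 to 0.0891 where lost) and 8 for Myo1e (0.0544 to 0.122).

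The lysosome gene Gpnmb had the highest difference among the 35 protein-coding genes called. Gpnmb, a transmembrane glycoprotein of lysosome-rich macrophages (chr6:49036546-49070929), was at 55.9, 17.3 and 54.2 FPKM in MacB2-2wk and 1.09, 1.38 and 2.19 in MacB2-N, against 248, 194 and 95.4 in MacA-2wk and 201, 112 and 144 in MacA-N. It rose in MacB2 by 3.94 and the MacA groups overlapped, for a difference of 3.78 ± 0.77 (SE, 3 libraries per group, adjusted p = 0.0459). The call was lost without each of 11 libraries, all but MacB2-2wk replicate 2 (adjusted p 0.0522 to 0.138). Fabp5, a fatty acid binding protein, was at 59.99, 48.8 and 101.02 FPKM in MacB2-2wk and 19.9, 17.8 and 13.1 in MacB2-N, against 196, 154 and 57.3 in MacA-2wk and 169, 230.4 and 177 in MacA-N. Its difference was 2.59 (adjusted p = 0.0407), and 9 libraries could each end the call (adjusted p 0.0517 to 0.122). MacA-2wk replicate 3 held the lowest Fabp5 level of its population.

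Dab2, an endocytic adaptor for clathrin-coated pits, was at 106, 46.1 and 64.4 FPKM in MacB2-2wk and 13.4, 6.13 and 19.4 in MacB2-N, against 414, 437 and 278 in MacA-2wk and 345, 314 and 339 in MacA-N. MacB2-2wk lay wholly above MacB2-N and the MacA groups overlapped. Dab2 had a difference of 2.28 (adjusted p = 0.0454), with 2.43 in MacB2 and 0.15 in MacA. Gpd1, which makes glycerol 3-phosphate for lipid synthesis, was at 2.31, 4.40 and 1.42 FPKM in MacB2-2wk and 0.261, 0.304 and 0.169 in MacB2-N, against 3.88, 8.98 and 4.15 in MacA-2wk and 16.6, 10.9 and 11.9 in MacA-N. Its difference was 2.64 (adjusted p = 0.0368), with all MacB2-2wk libraries above MacB2-N and all MacA-2wk libraries below MacA-N. Pecr, a peroxisomal reductase of fatty acid elongation, was at 6.12, 1.43 and 2.80 FPKM in MacB2-2wk and 0, 0 and 0 in MacB2-N, against 16.8, 14.6 and 16.98 in MacA-2wk and 21.99, 17.8 and 21.5 in MacA-N. Being listed at 0 in the 3 MacB2-N libraries, it is given no fold, and its fitted difference of 2.33 (adjusted p = 0.0381) depends on the pseudocount. The calls of Dab2 were lost without 9 libraries (adjusted p 0.0620 to 0.101), of Gpd1 without 10 (0.0596 to 0.0891) and of Pecr without 11 (0.0544 to 0.0969).

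Of 18 genes of Trem2-associated macrophages, a lipid-loaded state, Gpnmb and Fabp5 had called differences, against 0.221% of all genes tested. Among the 18, 5 rose in MacB2 and 0 in MacA (1.66% and 0.729% of all genes tested), with medians of 0.53 and -0.07. Apoe, the lipid carrier, went the other way without a call, with a difference of -1.45 (adjusted p = 0.427). Of 28 genes of fatty acid and lipid handling 1, Fabp5, had a called difference, against 0.221% of all genes tested. In 16 genes of cholesterol synthesis 0 were called in the difference (0.221% of all genes tested), at a median of -0.79. The MacB2 median of -0.18 stood beside a MacA median of 0.52. Sqle, the squalene epoxidase of that pathway, had -0.09 in MacB2 and 0.98 in MacA, neither called.

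The alveolar macrophage list held 26 tested genes, of which 22 had a difference above 0, against 48.3% of all genes tested. Its median response was 0.18 in MacB2 and -0.46 in MacA. In it 1 difference was called, that of Il1rn, against 0.221% of all genes tested. The list mean by library, as log2(FPKM + 1), was 8.47, 8.45 and 7.77 in MacA-2wk and 8.56, 8.74 and 8.53 in MacA-N. The lowest MacA mean was thus in MacA-2wk replicate 3, which stood apart above. In MacB2 the list mean was 4.11, 4.00 and 4.08 at 2 weeks and 3.27, 3.24 and 3.49 in naive cells. Il1rn, which encodes the interleukin-1 receptor antagonist (chr2:24336853-24351494), was at 468, 315 and 614 FPKM in MacB2-2wk and 73.97, 75.1 and 46.9 in MacB2-N, against 664, 520.4 and 602 in MacA-2wk and 383, 637 and 481 in MacA-N. The 3 MacB2-2wk libraries were all above MacB2-N, near the range of MacA, and the difference was 2.52 ± 0.43 (SE, 3 libraries per group, adjusted p = 0.0185). The call ended without MacA-N replicate 2, MacB2-2wk replicate 1 or MacB2-2wk replicate 3 (adjusted p 0.0501 to 0.0621). Ctsk, a cysteine protease, was at 77.5, 22.99 and 53.8 FPKM in MacB2-2wk and 0.536, 0.253 and 1.52 in MacB2-N, against 309.9, 232 and 166 in MacA-2wk and 133, 77.8 and 120.3 in MacA-N, and its difference of 3.71 was not called (adjusted p = 0.0832). Fabp1, a defining alveolar gene, had 0.426, 0 and 2.79 FPKM in MacB2-2wk and 0, 3.75 and 0 FPKM in MacB2-N, against 185 to 1555 FPKM in the 6 MacA libraries.

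Scimp and Adcy3, which act in signalling, rose in MacB2. Scimp, a membrane adaptor of antigen-presenting cells (chr11:70790932-70812586), was at 8.21, 5.56 and 12.5 FPKM in MacB2-2wk and 0.831, 0.925 and 1.67 in MacB2-N, against 20.5, 19.4 and 19.96 in MacA-2wk and 26.5, 56.5 and 31.01 in MacA-N. MacB2-2wk lay wholly above MacB2-N, MacA-2wk lay wholly below MacA-N, and MacB2 stayed below MacA. The difference was 2.97 ± 0.48 (SE, 3 libraries per group, adjusted p = 0.0107). Adcy3, an adenylyl cyclase that makes cyclic AMP (chr12:4133103-4213525), was at 5.20, 2.48 and 3.33 FPKM in MacB2-2wk and 0.301, 0.487 and 0.429 in MacB2-N, against 38.6, 48.2 and 17.2 in MacA-2wk and 64.6, 79.03 and 66.7 in MacA-N. MacB2-2wk lay wholly above MacB2-N while each MacA-2wk library lay below each MacA-N library, and the difference was 2.80 ± 0.45 (SE, 3 libraries per group, adjusted p = 0.0107), with a MacA change of -1.11 that was not called (adjusted p = 0.136).

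Ccr1, a receptor for inflammatory CC chemokines (chr9:123962124-123968692), was at 100.7, 77.6 and 107 FPKM in MacB2-2wk and 24.8, 32.9 and 19.7 in MacB2-N, against 79.6, 61.1 and 47.9 in MacA-2wk and 40.7, 68.4 and 62.7 in MacA-N. In naive lungs Ccr1 was lower in MacB2 than in MacA, and at 2 weeks the mean was 95.2 FPKM in MacB2-2wk and 62.9 FPKM in MacA-2wk. The difference was 1.72 (adjusted p = 0.0308), lost without 7 libraries (adjusted p 0.0544 to 0.0892). Of 10 chemokine receptor genes tested, Ccr1 was the 1 with a called difference, against 0.221% of all genes tested. Gpr171, a G protein-coupled receptor, was at 10.98, 4.70 and 12.3 FPKM in MacB2-2wk and 1.86, 2.48 and 0.962 in MacB2-N, against 3.59, 4.15 and 3.49 in MacA-2wk and 4.80, 13.8 and 8.47 in MacA-N. At 2 weeks every MacB2 library lay above its naive group and every MacA library below it. Gpr171 had a difference of 2.82 (adjusted p = 0.0185), lost without MacA-N replicate 2, MacB2-2wk replicate 1 or MacB2-2wk replicate 3 (adjusted p 0.0531 to 0.0628).

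Entpd1 was the 1 higher gene with a called fall in MacA and no called rise in MacB2. It encodes CD39, an ectoenzyme that breaks down extracellular ATP (chr19:40612366-40741602). Entpd1 was at 257, 228 and 207 FPKM in MacB2-2wk and 177, 204 and 184 in MacB2-N, against 54.97, 72.7 and 73.2 in MacA-2wk and 166, 169 and 187 in MacA-N. The MacA groups did not overlap and fell by 1.37 on the log2 scale, while MacB2 changed by 0.29, which was not called. The difference was 1.66 ± 0.26 (SE, 3 libraries per group, adjusted p = 0.00864). From nearly equal naive levels the populations stood apart at 2 weeks, with a mean of 231 FPKM in MacB2-2wk and 66.9 FPKM in MacA-2wk.

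The metabolic genes Mt1 and Phgdh and the RNA-binding gene Igf2bp2 also rose in MacB2. Mt1, a zinc-binding metallothionein, was at 244, 158 and 257 FPKM in MacB2-2wk and 69.7, 100 and 49.5 in MacB2-N, against 1008, 922 and 500.2 in MacA-2wk and 1052, 1701 and 1119 in MacA-N. All MacA-2wk libraries lay below MacA-N, and the difference was 2.30 (adjusted p = 0.0459). Phgdh, the first enzyme of serine synthesis, was at 2.87, 2.04 and 3.87 FPKM in MacB2-2wk and 0, 0 and 0.576 in MacB2-N, against 16.4, 21.6 and 15.3 in MacA-2wk and 21.1, 21.2 and 22.9 in MacA-N. Its MacA groups overlapped, and the difference was 2.02 (adjusted p = 0.0311). Igf2bp2, which binds mRNA, was at 3.78, 8.79 and 8.77 FPKM in MacB2-2wk and 0.111, 0.281 and 0.169 in MacB2-N, against 7.64, 10.2 and 19.9 in MacA-2wk and 10.2, 10.3 and 13.2 in MacA-N. Here too the MacA groups overlapped, and the difference was 2.64 (adjusted p = 0.0308). Each of the 3 calls was lost without 9 libraries, at an adjusted p of 0.0502 to 0.135 for Mt1, 0.0544 to 0.0892 for Phgdh and 0.0568 to 0.0892 for Igf2bp2. The other 3 called genes do not encode proteins by their annotation, the miRNA gene Gm25262, the small nucleolar RNA gene Gm23925 and the transcript 0610009E02Rik. Gm25262 and Gm23925 were listed at 0 in the 3 MacB2-N libraries, and Gm25262 also in the 3 MacA-2wk libraries, so no fold is given. Short transcripts carry large and uneven FPKM, and Gm25262 ran from 39.6 to 569 FPKM within MacB2-2wk.

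Chains of complement C1q led the genes that rose more in MacA. C1q is the recognition molecule of the classical complement pathway, and its 3 chains come from neighbouring genes on chromosome 4. C1qa (chr4:136895917-136898803) was at 63.9, 65.1 and 85.4 FPKM in MacB2-2wk and 37.95, 34.3 and 41.3 in MacB2-N, against 58.4, 13.7 and 46.8 in MacA-2wk and 0.360, 0.915 and 1.23 in MacA-N. C1qc (chr4:136889804-136893065) was at 46.7, 46.6 and 76.95 FPKM in MacB2-2wk and 28.3, 17.3 and 26.6 in MacB2-N, against 37.9, 16.4 and 37.04 in MacA-2wk and 0.201, 0.893 and 0 in MacA-N. In both genes all MacA-2wk libraries exceeded all MacA-N libraries, MacB2-2wk also exceeded MacB2-N, and MacA-2wk replicate 2 was the lowest of its group. The difference was -3.38 ± 0.48 for C1qa (SE, 3 libraries per group, adjusted p = 0.00864) and -3.29 ± 0.42 for C1qc (adjusted p = 0.00368, the smallest of all genes). C1qb (chr4:136880129-136886187) was at 111, 117 and 166 FPKM in MacB2-2wk and 53.7, 36.7 and 44.4 in MacB2-N, against 66.95, 15.9 and 47.1 in MacA-2wk and 2.72, 2.02 and 1.55 in MacA-N. It rose in both, by 1.52 in MacB2 and 3.64 in MacA, and its difference of -2.12 was not called (adjusted p = 0.0770), though it was without MacA-2wk replicate 2 (adjusted p = 3.28e-04).

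The C1q difference depended on the scale, as did those of other lower genes. In FPKM, C1qa was 33.6 higher in MacB2-2wk than in MacB2-N and 38.8 higher in MacA-2wk than in MacA-N, and C1qc was 32.7 higher in MacB2-2wk and 30.1 higher in MacA-2wk. On a square root scale neither difference was called (adjusted p = 0.464 for C1qa and 0.526 for C1qc), and with a pseudocount of 5 both lost the call (adjusted p = 0.0855 for each). Oasl2, Rtp4, Itgam, Slc11a1, Pla2g7 and Mnda also lost the call in both settings. In that order the adjusted p was 0.516, 0.559, 0.613, 0.507, 0.465 and 0.572 on the square root scale. With a pseudocount of 5 it was 0.104, 0.114, 0.113, 0.0710, 0.168 and 0.288. Rnf213 kept its call in both. Of the 35 protein-coding genes called, the change in FPKM had the sign of the log2 difference in 33, the exceptions being C1qc and Rtp4. Of 21 complement genes tested, C1qa, C1qc and Itgam had called differences and 18 did not, where 0.221% of all genes tested were called. C3ar1, the receptor for the fragment C3a, rose in both, by 2.31 in MacB2 and 2.58 in MacA, with a difference of -0.27 (95% interval -1.21 to 0.66).

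Among interferon-stimulated genes more were called up in MacA than in MacB2. These genes are known to be switched on by type I interferon through a factor that binds a sequence called the interferon-stimulated response element. Of 31 such genes tested, 2 rose in MacB2 and 13 in MacA (1.66% and 0.729% of all genes tested). Medians were 0.28 in MacB2 and 1.23 in MacA, and the difference was below 0 for 28 of 31, against 49.6% of all genes tested. The difference was called for 3 (Oas3, Oasl2 and Rtp4), against 0.221% of all genes tested. Oas3, a 2'-5' oligoadenylate synthetase that senses double-stranded RNA (chr5:120753098-120777661), was at 47.2, 39.8 and 55.1 FPKM in MacB2-2wk and 66.8, 45.97 and 41.9 in MacB2-N, against 9.07, 6.88 and 5.72 in MacA-2wk and 0.398, 0.478 and 0.430 in MacA-N. MacA-2wk lay wholly above MacA-N, the MacB2 groups overlapped, and MacA stayed below MacB2 at both times. The difference was -2.60 ± 0.41 (SE, 3 libraries per group, adjusted p = 0.00864).

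Oasl2, a related synthetase-like protein, was at 202, 182 and 258 FPKM in MacB2-2wk and 263, 174 and 200.1 in MacB2-N, against 31.2, 21.03 and 22.8 in MacA-2wk and 1.904, 7.12 and 3.77 in MacA-N. The MacB2 groups overlapped and the MacA groups did not. Oasl2 had a difference of -2.39 (adjusted p = 0.0368), lost without 10 libraries (adjusted p 0.0544 to 0.0892). Rtp4, an interferon-inducible receptor chaperone, was at 111, 89.4 and 147 FPKM in MacB2-2wk and 111, 98.6 and 66.01 in MacB2-N, against 22.6, 22.7 and 36.7 in MacA-2wk and 4.75, 3.25 and 5.59 in MacA-N. Its MacB2 groups overlapped, its MacA groups did not, and the difference was -2.01 (adjusted p = 0.0308), lost without 7 (0.0544 to 0.0863). Irf7, the transcription factor that amplifies type I interferon, was at 530.2, 459 and 712 FPKM in MacB2-2wk and 757, 550.3 and 342 in MacB2-N, against 48.3, 41.2 and 45.1 in MacA-2wk and 7.94, 8.24 and 7.87 in MacA-N. It rose in MacA by 2.34 and its difference of -2.25 was not called (adjusted p = 0.0770). Ifit1 and Ifit2, members of an antiviral family, rose in both populations, with differences of -0.69 and -0.79 that were not called (adjusted p = 0.679 and 0.527).

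Outside that list, Ifi27l2a, an interferon-inducible gene (chr12:103442167-103443680), was at 235, 212 and 227 FPKM in MacB2-2wk and 428, 246 and 386 in MacB2-N, against 69.5, 30.1 and 65.3 in MacA-2wk and 4.72, 10.98 and 9.69 in MacA-N. The difference was -3.16 ± 0.48 (SE, 3 libraries per group, adjusted p = 0.00864), and each MacB2-2wk library lay below each MacB2-N library, a MacB2 change of -0.61 that was not called. Ifi27l2a has close relatives that could share reads. Rnf213, a large ubiquitin ligase also induced by interferon (chr11:119393100-119487418), was at 77.7, 75.3 and 74.9 FPKM in MacB2-2wk and 108, 112 and 131 in MacB2-N, against 29.5, 21.1 and 21.6 in MacA-2wk and 11.4, 5.56 and 9.88 in MacA-N. Its MacA libraries rose by 1.37, its MacB2 libraries at 2 weeks were all below the naive ones without a call (-0.61), and the difference was -1.98 ± 0.31 (SE, 3 libraries per group, adjusted p = 0.00864). Mnda, of the interferon-inducible p200 family with near-identical copies, was at 66.2, 69.5 and 76.8 FPKM in MacB2-2wk and 91.4, 52.2 and 59.8 in MacB2-N, against 8.33, 7.07 and 7.53 in MacA-2wk and 1.31, 1.49 and 1.03 in MacA-N. The MacB2 groups overlapped, MacA-2wk lay above MacA-N, and the difference was -1.83 (adjusted p = 0.0335), lost without 9 libraries (adjusted p 0.0544 to 0.0898).

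The core of the response element, taken as GAAA, any 2 bases and GAAA again, was searched on both strands in the 250 bases before each RefSeq gene start (GRCm38.p6). It was present before 3.46% of 27025 genes. Among interferon-stimulated genes with a promoter entry it was present in 10 of 21 (47.6%), and among those called in MacA in 5 of 9 (55.6%). Among the genes with a called difference it was present in 1 of 10 lower genes, Oas3, and in 0 of 15 higher genes. The stretches of these 5 genes that rose in MacA are shown on the coding strand of each gene, with matches in capitals, because 1 of them, Oas3, had a called difference and the other 4 had a match and no call. Overlapping matches run together in Isg15. No match says only that these letters are not in the window.
Oas3 (chr5:120777705-120777754, minus strand): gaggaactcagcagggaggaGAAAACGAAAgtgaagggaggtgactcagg
Isg15 (chr4:156200855-156200916, minus strand): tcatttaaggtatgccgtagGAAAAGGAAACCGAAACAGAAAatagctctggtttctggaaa
Ifit1 (chr19:34640765-34640833, plus strand): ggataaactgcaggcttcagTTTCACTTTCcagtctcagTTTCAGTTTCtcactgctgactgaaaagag
Ifit3 (chr19:34583353-34583436, plus strand): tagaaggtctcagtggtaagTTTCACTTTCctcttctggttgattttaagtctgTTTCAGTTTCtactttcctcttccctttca
Rsad2 (chr12:26456543-26456592, minus strand): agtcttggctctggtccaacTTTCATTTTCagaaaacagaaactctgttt

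The difference of responses was -2.60 for Oas3, -0.83 for Isg15 (adjusted p = 0.548), -0.69 for Ifit1, -1.14 for Ifit3 (adjusted p = 0.492) and -0.49 for Rsad2 (adjusted p = 0.788). Isg15, a ubiquitin-like modifier, was at 157, 158 and 226 FPKM in MacB2-2wk and 93.8, 83.4 and 107 in MacB2-N, against 20.4, 16.9 and 29.8 in MacA-2wk and 4.56, 7.19 and 6.04 in MacA-N. All 3 MacB2-2wk libraries of Isg15 were above MacB2-N, a change of 0.90 that was not called.

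Some genes of monocyte-derived and interstitial macrophages also rose in MacA. Of 23 tested, 3 rose in MacB2 and 6 in MacA (1.66% and 0.729% of all genes tested). A difference below 0 was found in 19 of the 23, against 49.6% of all genes tested. In the list 4 differences were called, C1qa, C1qc and Itgam among them, against 0.221% of all genes tested. Itgam (chr7:128062640-128118491) was at 258, 275 and 289 FPKM in MacB2-2wk and 303, 342 and 197 in MacB2-N, against 24.5, 10.3 and 17.2 in MacA-2wk and 1.58, 0.680 and 4.65 in MacA-N. CD11b was used in the MacB2 gate and not in the MacA gate. The difference was -2.58 ± 0.50 (SE, 3 libraries per group, adjusted p = 0.0368), lost without 9 libraries (adjusted p 0.0600 to 0.0951).

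Csf1r, the receptor of colony-stimulating factor 1, had a difference of -0.41 (95% interval -1.16 to 0.34), and Ccr2, the monocyte chemokine receptor, of -0.83 (95% interval -1.55 to -0.12), neither called. Cx3cr1, the fractalkine receptor, was at 65.4, 66.9 and 66.98 FPKM in MacB2-2wk and 109, 112 and 99.9 in MacB2-N, against 3.48, 1.24 and 1.46 in MacA-2wk and 0.680, 0.756 and 0.873 in MacA-N. In MacB2 all 2-week libraries were below the naive ones and in MacA all were above, with changes of -0.68 and 0.72 that were not called. The difference of -1.40 was not called either (adjusted p = 0.0669), but was under 4 of 26 alternatives, among them the fit without MacA-2wk replicate 2 (adjusted p = 0.0269).

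Slc11a1, a metal transporter of phagosomes, was at 375, 401 and 279.8 FPKM in MacB2-2wk and 471, 337 and 340.2 in MacB2-N, against 85.2, 45.6 and 43.3 in MacA-2wk and 20.9, 7.67 and 10.1 in MacA-N. Its MacB2 groups overlapped, MacA-2wk lay above MacA-N, and the difference was -2.25 (adjusted p = 0.0396). Pla2g7, which hydrolyses platelet-activating factor, was at 102, 89.6 and 70.2 FPKM in MacB2-2wk and 139, 122 and 44.8 in MacB2-N, against 21.5, 11.96 and 30.3 in MacA-2wk and 1.88, 3.92 and 1.99 in MacA-N. It showed the same overlaps, with a difference of -2.67 (adjusted p = 0.0404). Secisbp2, needed to make selenoproteins, was at 9.33, 8.51 and 6.53 FPKM in MacB2-2wk and 9.96, 12.5 and 18.9 in MacB2-N, against 8.97, 13.7 and 9.40 in MacA-2wk and 5.27, 1.87 and 3.03 in MacA-N. All MacB2-2wk libraries were below MacB2-N and all MacA-2wk libraries above MacA-N, for a difference of -2.13 (adjusted p = 0.0454). Ptprj, a receptor tyrosine phosphatase, was at 100.8, 73.3 and 71.3 FPKM in MacB2-2wk and 122, 114 and 133 in MacB2-N, against 31.5, 28.3 and 22.9 in MacA-2wk and 17.05, 19.9 and 20.8 in MacA-N. Its libraries were ordered in the same way, and its called difference was the smallest, -1.08 (adjusted p = 0.0459), with -0.60 in MacB2 and 0.49 in MacA. The calls were lost without 9 libraries for Slc11a1 (adjusted p 0.0590 to 0.118) and Pla2g7 (0.0618 to 0.118), and without 10 for Secisbp2 (0.0544 to 0.128) and Ptprj (0.0653 to 0.128).

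Cyp2a5, a cytochrome P450 with a near-identical neighbour, was the 1 gene of the set with a called fall in MacB2. Its level was 0, 0 and 0.319 FPKM in MacB2-2wk and 8.62, 7.61 and 9.89 in MacB2-N, against 0, 0 and 5.04 in MacA-2wk and 0, 0.141 and 0 in MacA-N. The whole MacA-2wk signal was in replicate 3, the highest of its group in the fibroblast, endothelial and lung epithelial lists. In MacB2 the lung epithelial sum was lower at 2 weeks in every library, as Cyp2a5 was. The list mean of log2(FPKM + 1) overlapped, with 3.10, 4.06 and 3.55 in MacB2-2wk and 3.83, 3.54 and 4.35 in MacB2-N. The part of these transcripts in the result was not tested. The difference was -3.94 (adjusted p = 0.0368), and the call was lost without 9 libraries (adjusted p 0.0647 to 0.0892), MacA-2wk replicate 3 not among them.

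The populations were closer at 2 weeks than in naive lungs for nearly all called genes. The gap of MacB2 minus MacA was smaller at 2 weeks in 35 of 38, against 53.5% of all genes tested. Of the 23 higher genes, 22 were lower in naive MacB2 than in naive MacA, with a median gap of -0.85 at 2 weeks and -3.85 in naive cells on the log2 scale. All 15 lower genes were higher in naive MacB2, with a median gap of 2.06 at 2 weeks and 4.73 in naive cells. The gap in naive cells and the difference of responses share the naive libraries, so these counts are a description and not a second test. For most genes the gap kept its sign, in 17 of 23 higher and 13 of 15 lower genes.

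**Figure D3:**
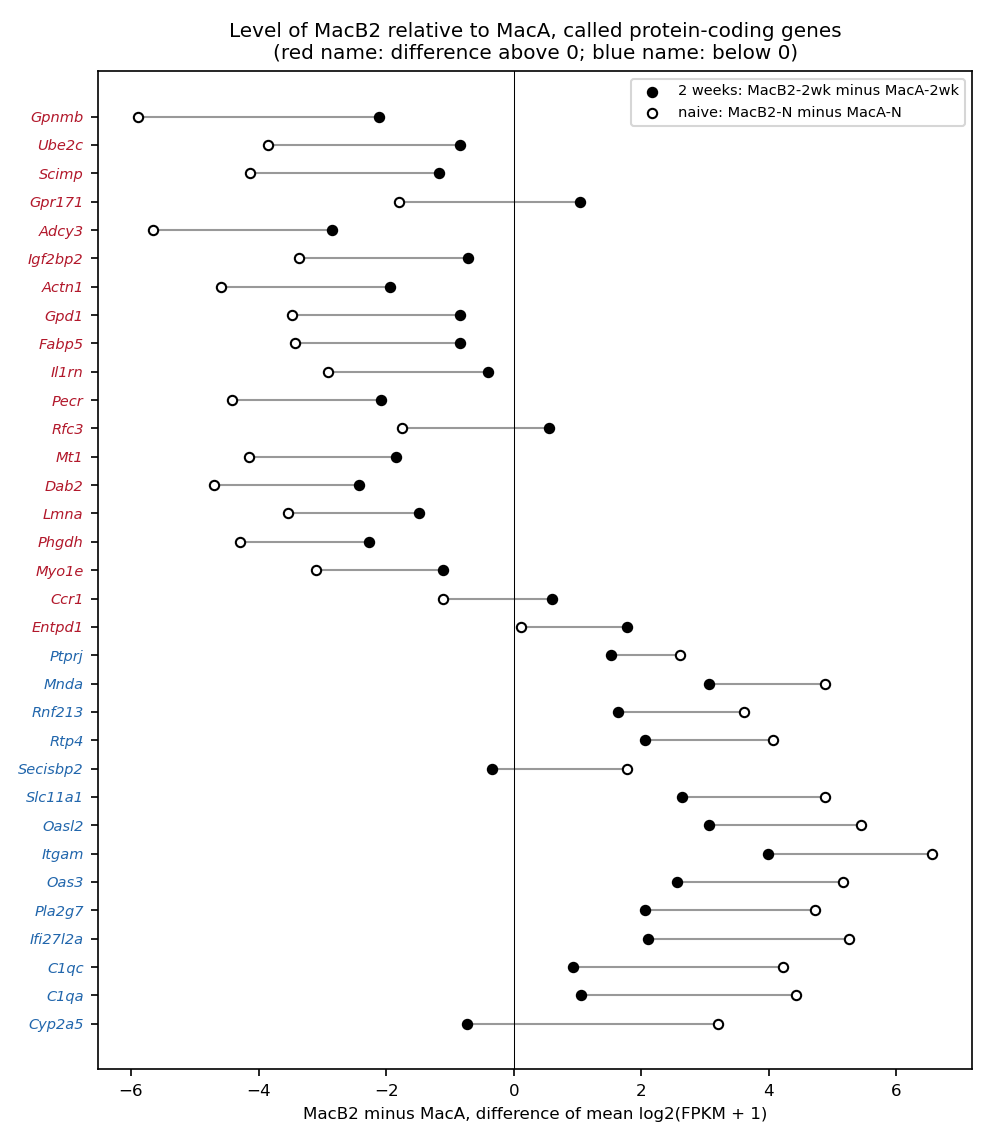
Level of MacB2 minus level of MacA for 33 of the 35 called protein-coding genes, as a difference of group means of log2(FPKM + 1), with filled points at 2 weeks and open points in naive cells. Red names had a difference of responses above 0 and blue names one below 0. The points move toward 0 in most genes, away from it in Entpd1, and across it in Gpr171, Rfc3, Ccr1, Secisbp2 and Cyp2a5.

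Separation by library was wider than over all genes. MacB2-2wk lay wholly above MacB2-N in 23 of 23 higher genes (9.84% of all genes tested), and MacA-2wk lay wholly below MacA-N in 11 of them (4.98%). MacA-2wk lay wholly above MacA-N in 14 of 15 lower genes (9.62%), and MacB2-2wk lay wholly below MacB2-N in 5 (6.70%). The same libraries chose the genes, so nothing is read from these shares.

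Each population gained transcripts in which the other stood higher, so levels of defining genes of the other population are given beside the result. For the 13 lower genes that rose in MacA, the rise in FPKM was 4.47% to 89.8% of the MacB2-2wk level (median 19.7%). Over the 16 genes of the classical monocyte list the change in MacA had a median of 0.684% of the MacB2-2wk level, from -151% for Chil3, which the alveolar list also holds, to 56.5% for S100a8. Of these 16, 5 were above 4.47%: S100a8, Ly6c1, Fn1, Mmp8 and Vcan. The share was 0.578% for Ly6c2, a monocyte gene that near-identical copies could share, and 1.09% for Ccr2. Ly6c2 was at 1525, 1579 and 1820.0 FPKM in MacB2-2wk and 3034, 2218 and 2256 in MacB2-N, against 7.94, 9.51 and 18.7 in MacA-2wk and 1.53, 3.46 and 2.72 in MacA-N. The interstitial and monocyte-derived macrophage list has 23 genes, 4 of them among the lower genes. Its mean by library, as log2(FPKM + 1), was 4.26, 3.53 and 3.96 in MacA-2wk and 2.42, 2.45 and 2.65 in MacA-N. In MacB2-2wk that mean was 6.24, 6.20 and 6.38. For the 19 protein-coding higher genes that rose in MacB2, the rise was 9.41% to 202% of the MacA-2wk level (median 32.6%). Over the 26 genes of the alveolar list the change in MacB2 had a median of 0.897% of the MacA-2wk level, from -7.40% for Pparg to 67.2% for Il1rn, with 1.68% for Siglecf and 21.5% for Ctsk. In MacB3, another tumour population of the series, C1q levels were higher: the rise of C1qa and C1qc in MacA was 2.08% and 2.40% of the MacB3-2wk level, beside 54.3% and 52.9% of the MacB2-2wk level. Among the 20 higher protein-coding genes the MacB3-2wk mean was above that of MacB2-2wk in 15 and above that of MacA-2wk in 11. In the 15 lower genes these counts were 6 and 13, against 40.5% and 41.1% of all genes tested. The part of other sorted populations in the rises of MacA and MacB2 was not tested.

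The later MacB2-3wk group stood outside the comparison. The mean in MacB2-3wk was above that in MacB2-N in 20 of 20 higher protein-coding genes and above that in MacB2-2wk in 16, against 48.4% and 46.6% of all genes tested. Of the 15 lower genes the MacB2-3wk mean was above that in MacB2-N in 4, C1qa, C1qc and Pla2g7 among them. C1qa and C1qc averaged 173 and 120 FPKM in MacB2-3wk, against 37.8 and 24.1 FPKM in MacB2-N. Mnda, Rtp4 and Oasl2 averaged 41.8, 63.2 and 124 FPKM in MacB2-3wk, against 67.8, 91.7 and 212 FPKM in MacB2-N. These values share the MacB2-N libraries with the difference, so no support is drawn from them. Ube2c had a mean of 81.6 FPKM in MacB2-3wk, Actn1 of 74.1 FPKM and Lmna of 244 FPKM, while Gpd1 had 1.03 FPKM.

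Some of the strongest responses were shared. The 37 genes called in both responses without a called difference included Arg1, the arginine-degrading enzyme of tumour macrophages (chr10:24915221-24927484). Arg1 was at 93.2, 46.4 and 140.4 FPKM in MacB2-2wk and 0.807, 0.763 and 0.574 in MacB2-N, against 26.2, 7.95 and 5.09 in MacA-2wk and 0.0787, 0 and 0.449 in MacA-N. Both populations rose in every library, by 5.65 in MacB2 and 3.30 in MacA. The difference of 2.35 had a 95% interval of 1.05 to 3.65 and was not called (adjusted p = 0.145), but was without MacA-2wk replicate 1, the highest of its group (adjusted p = 0.0241). AA467197 rose by 4.66 in MacB2 and 4.06 in MacA, with a difference of 0.59 (95% interval -0.58 to 1.76).

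Ptn, which encodes the growth factor pleiotrophin, rose by 3.58 in MacB2 and 2.92 in MacA and differed by 0.66 (95% interval -0.65 to 1.96). Another 3 genes, expressed by stromal cells, rose in both with wide intervals. Col3a1, a fibrillar collagen, differed by 0.09 (95% interval -1.82 to 2.01), Gja1, a gap junction protein, by -0.06 (-2.07 to 1.94) and Serpinf1, a secreted serpin, by -0.62 (-2.68 to 1.44). In MacA all 4 genes were highest in replicate 3, where Ptn was at 21.2 FPKM against 2.88 and 4.09 FPKM and Col3a1 was at 98.7 FPKM against 13.7 and 8.52 FPKM in the other MacA-2wk libraries. Lgals2, a galectin, was the 1 gene called lower in both.

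Other lists gave few or no called differences. Over all genes tested 0.221% were called, so a count of 0 in lists of this size is near that share. Nothing is read from such counts. Of 26 genes of glycolysis and hypoxia, 7 rose in MacB2 and 0 in MacA (1.66% and 0.729% of all genes tested). Among the 26, 0 had a called difference (adjusted p of at least 0.110). Bnip3, a mitophagy receptor induced by low oxygen, had 2.07 in MacB2 and 0.22 in MacA, with a difference of 1.85 (adjusted p = 0.187). Of 21 CC and CXC chemokine genes, 5 rose in MacB2 and 2 in MacA (1.66% and 0.729% of all genes tested). Their medians were 1.34 in MacB2 and 0.27 in MacA, and 0 had a called difference. Ccl5, a T cell attractant, was at 112, 102 and 122 FPKM in MacB2-2wk and 34.8, 11.5 and 23.6 in MacB2-N, against 15.2, 6.39 and 11.8 in MacA-2wk and 7.11, 13.3 and 8.11 in MacA-N. Its difference of 2.17 was not called (adjusted p = 0.0621), nor was that of Cxcl3, a neutrophil attractant (3.49, adjusted p = 0.0770). Of 20 interferon-gamma inducible GTPase and chemokine genes, 6 rose in MacB2 and 4 in MacA (1.66% and 0.729% of all genes tested). Their medians were 0.96 and 0.79, and 0 had a called difference.

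**Figure D4:**
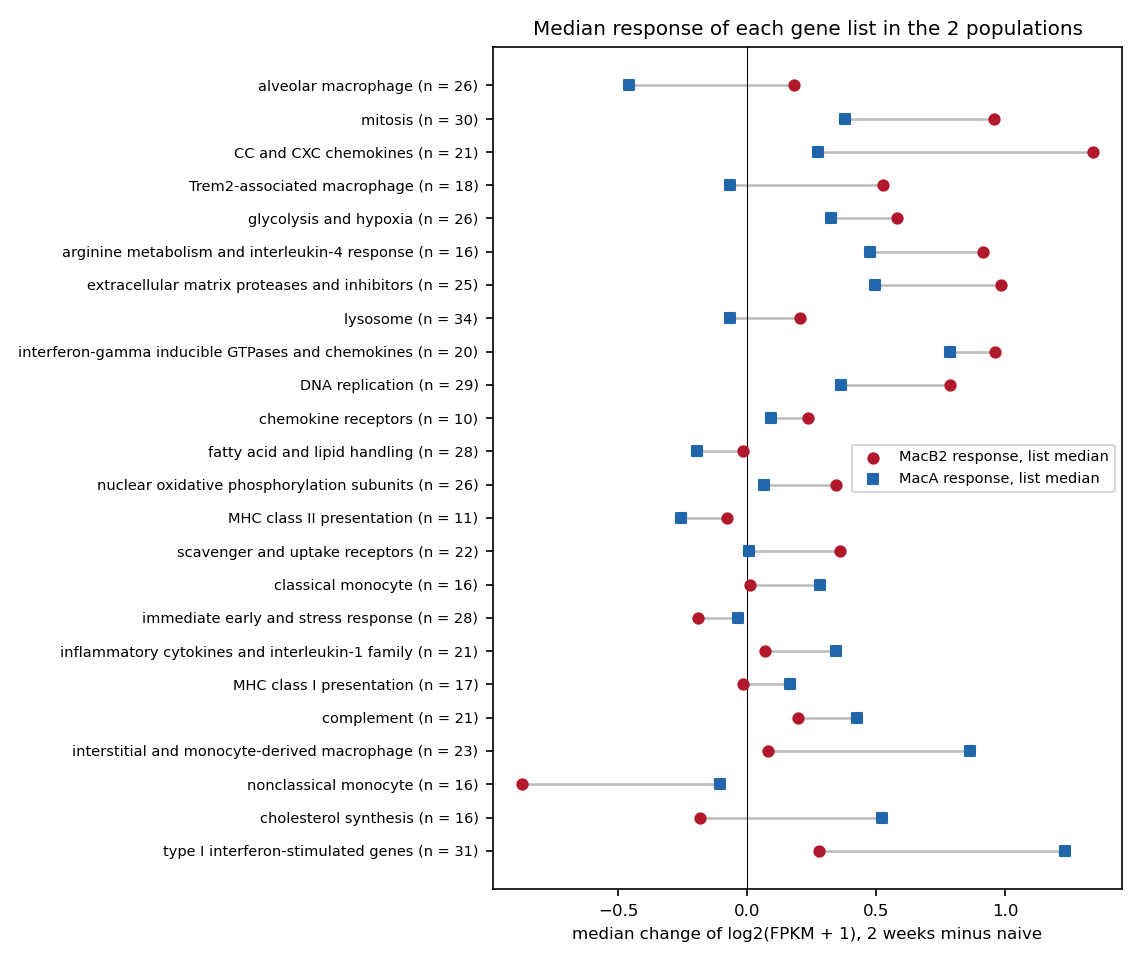
Median response of the tested members of each gene list in MacB2 (red circles) and MacA (blue squares), as the change of log2(FPKM + 1) between 2 weeks and naive, with the number of tested genes in parentheses. Type I interferon-stimulated genes have the widest gap on the MacA side (0.28 in MacB2 and 1.23 in MacA), and CC and CXC chemokines on the MacB2 side (1.34 in MacB2 and 0.27 in MacA).

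Of 16 nonclassical monocyte genes, 15 had a difference below 0, against 49.6% of all genes tested. Among the 16, 0 were called in the difference, the MacB2 response or the MacA response (0.221%, 1.88% and 0.787% of all genes tested). Medians were -0.87 in MacB2 and -0.10 in MacA. Nr4a1, the nuclear receptor of that monocyte lineage, changed by -1.01 in MacB2 and 0.13 in MacA, which were not called. Of 34 lysosome genes 3 rose in MacB2 and 0 in MacA (1.66% and 0.729% of all genes tested). In 26 nuclear genes of oxidative phosphorylation, 11 of MHC class II and 17 of MHC class I presentation, 0 had a called difference. Over the lists for other cell types (dendritic cell, neutrophil, T cell, NK cell, B cell, fibroblast, endothelial, lung epithelial, and erythroid and platelet), 0 differences were called. In lists of this size 0 is near the 0.221% called over all genes tested, so nothing is read from these counts. The neutrophil list summed to 652 to 930 FPKM in MacB2-2wk and 325 to 396 FPKM in MacB2-N, against 88.0 to 282 FPKM in MacA-2wk and 81.2 to 182 FPKM in MacA-N. The mast cell, basophil and eosinophil list summed to 3.5 FPKM or less in each of the 12 libraries.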

How the data were processed

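RNA of sorted lung macrophages and monocytes was sequenced, 3 libraries per titled group. The authors deposited 1 FPKM value per gene and library. Per the labels' protocols, total RNA was made into libraries with the NuGen Ovation FFPE kit and oligos against mouse ribosomal RNA. Per the submitters' processing notes, FastQC, TopHat2 version 2, Cufflinks 2.0.2 and mm10 were used, with order and settings not given in the sources used here. These tool names gave the unit. The deposited loci were not used: positions came from GENCODE M21 (GRCm38) by gene ID, and promoters from RefSeq.

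FPKM are not counts, so log2(FPKM + 1) was tested with limma 3.58.1 (trend) in R 4.3.3, a group-means model of 8 groups and 24 libraries with 16 residual degrees of freedom. Genes averaging 1 FPKM or more in any group were tested, 17156 of 37979, with Benjamini-Hochberg adjustment over all of them. A fold change on this scale understates the change of low genes. Absolute depth was unknown, and 3 libraries per group limited the precision. The steps were tested on simulated data.

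Text named the 12 highest and 12 lowest called protein-coding genes with at least 20 FPKM in 1 group, up to 4 called genes per list, up to 6 genes with shared responses, and gate, C1q and Arg1 genes; further genes were picked after their values were seen. The members and lists were chosen with earlier results of these data known. Of 684 entries in 34 lists, 683 matched. Alternatives were other pseudocounts, filters, scalings, weights, sample sets and blocks, and each library left out. Some genes are not reported here by name, and counts over all genes and lists include them.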

Additional observations from a re-analysis of the deposited data

Results flagged for a closer look

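The genes below stood out because their response to 2 weeks of tumour differed between MacB2 and MacA in a test of the difference itself, with limma's adjusted p under 0.05. Values are MacB2 response minus MacA response on the log2(FPKM + 1) scale, from 3 libraries per group. No group held enough libraries for a check for a single library far from the rest.

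The difference was above 0 in 23 genes, of which 22 are given. The highest were Gm25262 11.14, Gm23925 7.61, Gpnmb 3.78, 0610009E02Rik 3.20, Ube2c 3.02, Scimp 2.97, Gpr171 2.82, Adcy3 2.80, Igf2bp2 2.64, Actn1 2.64 and Gpd1 2.64. The others were Fabp5 2.59, Il1rn 2.52, Pecr 2.33, Rfc3 2.30, Mt1 2.30, Dab2 2.28, Lmna 2.06, Phgdh 2.02, Myo1e 2.00, Ccr1 1.72 and Entpd1 1.66. Values of Gm25262, Gm23925 and Pecr rest on naive MacB2 libraries listed at 0 and depend on the pseudocount. Other values moved with it too. Phgdh was 4.26 with a pseudocount of 0.1 and 0.849 with 5, and lost its call in both. With 5, Igf2bp2 was 1.13, Oas3 -1.26 and C1qc -1.58, and each lost its call.

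The difference was below 0 in 15 genes, of which 14 are given. They were Cyp2a5 -3.94, C1qa -3.38, C1qc -3.29, Ifi27l2a -3.16, Pla2g7 -2.67, Oas3 -2.60, Itgam -2.58, Oasl2 -2.39, Slc11a1 -2.25, Secisbp2 -2.13, Rtp4 -2.01, Rnf213 -1.98, Mnda -1.83 and Ptprj -1.08.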

How the results depend on the processing

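Which genes had a called difference depended on the processing, while the sign of none of the 38 turned. Of 1323 gene values under alternatives, 932 kept their side of the threshold, 382 lost a call and 9 gained one. The sign turned in 26 values of 5 genes whose difference was not called: AA467197 (-0.50), Col3a1 (down to -0.58), Fcgr1 (down to -0.20), Gja1 (up to 1.44) and Serpinf1 (up to 0.67). Against 38 genes called in the difference of responses, there were 89 with a pseudocount of 0.1 (36 among the 38), 19 with a pseudocount of 5 (14), 23 with no filter on low values (23), 13 with only the 12 libraries in the fit (4), 13 on a square root scale (5) and 58 with array weights (34). Leaving out 1 library gave 17 genes (without MacB2-2wk replicate 3) to 57 (without MacA-2wk replicate 2). The counts were 19 without MacB2-2wk replicate 1, 25 without MacB2-N replicate 1, 20 without MacB2-N replicate 2, 23 without MacA-2wk replicate 1, and 24, 19 and 22 without MacA-N replicate 1, 2 and 3. Against 323 genes in the MacB2 response, there were 148 with a pseudocount of 5, 85 with 12 libraries and 523 without MacA-2wk replicate 3 and MacB2-N replicate 3 together, an alternative chosen after seeing the data. Leaving out 1 library gave 136 (MacB2-2wk replicate 3) to 487 (MacA-2wk replicate 3), and 204 without MacB2-N replicate 1. Against 135 genes in the MacA response, there were 238 with a pseudocount of 0.1, 54 with 5, 34 with 12 libraries, 48 on a square root scale and 205 with array weights, and 87 (without MacA-N replicate 2) to 244 (without MacA-2wk replicate 2) with 1 library left out. Higher and lower calls were 284 and 39 in MacB2, against 209 and 71 after quantile normalization and 165 and 98 on the square root scale. They were 125 and 10 in MacA, against 27 and 21 on the square root scale and 168 and 37 with array weights. The causes were not tested, apart from fewer libraries or genes by construction. Unknown depth and 3 libraries per group limit what can be called.

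The replicate numbers shared by the groups were not taken to pair the samples: deviations of same-numbered libraries correlated at -0.0611 to 0.116, and of other-numbered ones at -0.123 to 0.117. These ranges cover all pairs of groups. Between MacB2-2wk and MacA-2wk, same-numbered libraries correlated at 0.116, -0.0131 and 0.0685, and other-numbered ones at -0.123 to 0.0499. Such ranges cannot decide whether libraries of 1 number share an experiment. With a replicate block the difference was called in 24 genes (16 higher and 8 lower, all among the 38), and with a replicate block within each population in 40 (20 higher and 20 lower, 29 among the 38). The blocks gave 320 and 318 genes in the MacB2 response and 124 and 145 in the MacA response.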
